A study of Mus musculus with 24 samples.

Results

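The comparison described here is the step from day 2 to day 4 of neural progenitor differentiation in cells that received no auxin. It rests on 4 of the 24 RNA sequencing libraries of the study, the 2 untreated libraries of day 2 and the 2 untreated libraries of day 4, chosen by their labels. The cells are F123, a mouse embryonic stem (ES) cell line, in which CTCF, a DNA-binding protein that anchors chromatin loops, is fused to a degron, a tag for regulated breakdown. Auxin triggers destruction of the tagged protein. Both groups carry the degron, and neither was given auxin, so the step shows differentiation with CTCF protein not depleted by auxin. The labels name a growth medium with serum replacement and LIF for all samples, call all of them embryonic stem cells, and do not name the agent that started differentiation. Other libraries came from ES cells with 0 to 96 h of auxin, from days 2, 4 and 6 with auxin, from day 6 without it, and from cells after auxin was washed out. The labels do not say whether the replicates were separate cultures or how many clones were used. The p-values here therefore reflect only how far libraries lie apart, which may be technical. That spread was estimated over 16 differentiation libraries, including those with auxin and after washout, and not from the 4 libraries alone.

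When ES cells leave the pluripotent state, the network around Oct4, Sox2 and Nanog is shut down, and with it the Nodal and FGF signals that the epiblast makes for itself. Retinoic acid, a vitamin A derivative, patterns the hindbrain and spinal cord by switching on Hox genes, its own receptor Rarb and the Cyp26 enzymes that break it down. In the neural tube, homeodomain and basic helix-loop-helix (bHLH) factors such as Olig2, Nkx6-1 and Neurog2 then set the identity of progenitors before neurons form.

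The 4 libraries held 58204586 and 65002822 read counts on day 2 and 61043565 and 67118355 on day 4. Values are given as CPM, read counts scaled to one common library size after correction for library composition, always with replicate 1 first. Across the 22598 genes tested, the log2 ratio between replicates had a standard deviation of 0.172 on day 2 and 0.169 on day 4. A gene is said to rise or fall where the adjusted p of edgeR's quasi-likelihood test was below 0.05, and errors of log2 fold changes are standard errors. The message of Ctcf itself (chr8:105636568-105682922 on GRCm38) was at 229 and 221 CPM on day 2 and at 229 and 234 CPM on day 4. The groups touched and the test did not separate them (log2 fold change 0.04 ± 0.09, adjusted p = 0.7).

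Between day 2 and day 4, 11740 genes changed, 52.0% of those tested. Of these, 6205 rose (27.5%) and 5535 fell (24.5%). At least 2-fold changes were found for 2613 genes that rose (11.6%) and 2233 that fell (9.88%). The median log2 fold change of all genes tested was 0.02. Because 52.0% of all genes passed, a count of called members in a gene list is read below against these shares and against that median. In RNA from whole cultures, fewer cells of a type and less RNA per cell cannot be told apart.

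**Figure D1:**
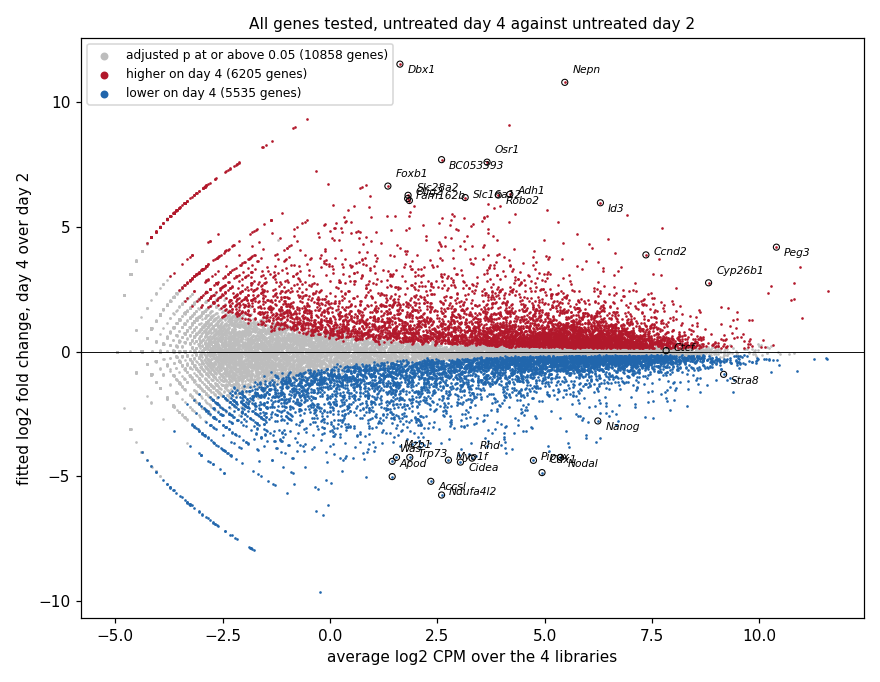
Each point is 1 of 22598 genes, with its average log2 CPM over the 4 libraries on the x axis and its fitted log2 fold change (day 4 over day 2) on the y axis. Red marks 6205 genes that rose, blue 5535 that fell and grey those that did not pass; circles mark the genes with the largest changes and a few others named in the text, and fold changes of genes with no count on 1 day depend on the prior count.

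Promoters of 6 genes are shown first, because each holds the motif of a factor known to act on it and the levels of all 6 are given below. They are RefSeq promoter sequences on GRCm38.p6, read 5′ to 3′ on the gene's strand. The capitals mark a motif found within 250 bases before the start site. For each gene, the first listed promoter that held the motif was taken. The composite element bound by Oct4 and Sox2 was searched on both strands, and 0.0335% of 32851 promoters held it. Of the list of core pluripotency genes and Pou5f1 partners, 11 genes had a promoter in the table and none (0) held it. In Nanog, a gene of the naive pluripotency list, it lay 75 to 64 bases before the start (chr6:122707374-122707465, plus strand).
Nanog: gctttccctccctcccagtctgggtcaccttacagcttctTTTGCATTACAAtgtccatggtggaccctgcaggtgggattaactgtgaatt
The DR5 retinoic acid response element, a direct repeat of the receptor's binding hexamer with a 5-base spacer, was searched on both strands and found in 0.0883% of promoters. Of 21 genes of retinoic acid metabolism and response, 16 had a promoter in the table, and Rarb and Cyp26a1 held it. In Rarb it lay 53 to 37 bases before a start inside the gene's annotated span (chr14:16575477-16575569, minus strand). In Cyp26a1 it lay 32 to 16 bases before the start on the opposite strand (chr19:37697736-37697807, plus strand).
Rarb: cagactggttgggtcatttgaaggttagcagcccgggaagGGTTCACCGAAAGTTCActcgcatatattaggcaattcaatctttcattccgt
Cyp26a1: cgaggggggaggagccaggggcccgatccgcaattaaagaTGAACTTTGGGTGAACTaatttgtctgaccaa
The ATF4 response element, searched as TGATGNAA on both strands, was present in 3.45% of promoters. Of 20 genes of the integrated stress response, 18 had a promoter in the table and 6 held the motif: Asns, Atf3, Chac1, Nupr1, Slc7a11 and Vldlr. The windows of Chac1 (chr2:119351009-119351096, plus strand), Nupr1 (chr7:126625533-126625620, minus strand) and Asns (chr6:7693210-7693272, minus strand) are printed from these 6. That of Nupr1 precedes a start inside the gene's annotated span. The motif holders not printed changed less. Atf3 did not pass, and Slc7a11 and Vldlr did not pass with all 24 libraries in the fit (log2 fold changes -0.53 and -0.76).
Chac1: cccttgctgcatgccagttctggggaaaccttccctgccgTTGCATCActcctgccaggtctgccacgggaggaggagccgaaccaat
Nupr1: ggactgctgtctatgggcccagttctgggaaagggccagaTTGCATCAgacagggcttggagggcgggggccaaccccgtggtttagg
Asns: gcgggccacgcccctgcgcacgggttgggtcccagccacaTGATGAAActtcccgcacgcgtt
A match describes letters in these windows and not binding. Shares above are of promoters, whereas list counts are of genes, counted where any of their promoters held the motif.

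Among genes with an average log2 CPM of at least 1, the 12 largest rises were those of Dbx1, Nepn, BC053393, Osr1, Foxb1, Adh1, Robo2, Olig2, Slc16a12, Fam162b, Slc28a2 and Id3. They include neural tube factors (Dbx1, Foxb1, Olig2), a mesoderm and kidney factor (Osr1), secreted or transport proteins, and an inhibitor of bHLH factors (Id3). Dbx1 (chr7:49631499-49636849), which marks progenitors of the middle neural tube, had no count on day 2 and 6.56 and 5.73 CPM on day 4, at least 258-fold higher than 3 counts over the day 2 group would give. This bound takes each count as a separate fragment and would be lower where fragments were counted more than once. Nepn (chr10:52388972-52404625), which encodes the secreted leucine-rich protein nephrocan, was at 0.0341 and 0.0595 CPM on day 2 and at 90.1 and 87.5 CPM on day 4. Its log2 fold change was 10.80 ± 0.60 (adjusted p = 4.9e-16), from a total of 6 counts on day 2. Osr1 (chr12:9570116-9581500) was at 0.102 and 0.149 CPM on day 2 and at 26.9 and 23.2 CPM on day 4 (log2 fold change 7.60 ± 0.38, adjusted p = 9.4e-15). Adh1, an alcohol dehydrogenase that can oxidise retinol, was at 0.392 and 0.506 CPM and then at 37.7 and 34.4 CPM. Robo2, a receptor for Slit guidance cues, was at 0.511 and 0.268 CPM and then at 29 and 30.7 CPM, 77.8-fold higher. For each of the 12, both day 4 libraries lay above both day 2 libraries, which the choice of these genes required.

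The 12 largest falls were those of Ndufa4l2, Accsl, Apod, Cdx1, Cidea, Was, Pipox, Myo1f, Rhd, Nodal, Mzb1 and Trp73. Ndufa4l2 (chr10:127514967-127517154), a mitochondrial protein known as a target of the hypoxia response, was at 12 and 11.7 CPM on day 2 and at 0.303 and 0.139 CPM on day 4 (log2 fold change -5.75 ± 0.38, adjusted p = 3.9e-11). Cdx1, a caudal-type homeobox factor and direct target of retinoic acid and Wnt signalling, was at 59.2 and 59.7 CPM and then at 1.62 and 2.46 CPM (-4.85 ± 0.18, adjusted p = 4.3e-13). Pipox, a peroxisomal oxidase, was at 51.9 and 49.8 CPM and then at 2.52 and 2.43 CPM. Several of the others, such as Was and Mzb1, are best known from blood cells and were at 5.13 to 5.59 CPM on day 2 and at 0.185 to 0.323 CPM on day 4. Trp73, a relative of p53, was at 6.54 and 7.14 CPM and then at 0.32 and 0.4 CPM.

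Most pluripotency genes fell, but none of those described here reached 0. Of 16 naive pluripotency genes, all tested, 12 fell and 2 rose, with a median log2 fold change of -1.04. Nanog (chr6:122707489-122714633), whose promoter is shown above, was at 132 and 131 CPM on day 2 and at 19 and 19.3 CPM on day 4 (-2.78 ± 0.10, adjusted p = 3.0e-15). Esrrb, an orphan nuclear receptor that sustains self-renewal, was at 409 and 393 CPM and then at 78.6 and 80.7 CPM (-2.33 ± 0.09, adjusted p = 5.1e-14). The falls were uneven. Klf4 was at 192 and 186 CPM and then at 121 and 123 CPM, a log2 fold change of -0.63 ± 0.09, whereas Fgf4, the autocrine growth factor of ES cells, had one of -3.25 ± 0.15. The 2 that rose were Socs3, a feedback inhibitor of LIF signalling, and Dppa3, a maternal and germ cell factor. Socs3, named here after its values were seen, was at 6.93 and 7.47 CPM and then at 19.3 and 22.9 CPM (1.55 ± 0.11, adjusted p = 1.3e-09). Dppa3 was at 3.2 and 3.78 CPM and then at 10.8 and 12 CPM (1.70 ± 0.13, adjusted p = 8.3e-09).

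Among 16 core pluripotency genes and partners of Pou5f1, 12 fell and 2 rose, with a median of -1.15. Pou5f1, which encodes Oct4, was at 403 and 374 CPM on day 2 and at 143 and 141 CPM on day 4 (-1.45 ± 0.09, adjusted p = 2.8e-11). Sox2 was at 172 and 173 CPM and then at 72.3 and 77.5 CPM (-1.20 ± 0.09, adjusted p = 1.8e-09). Utf1, a chromatin factor controlled by Oct4 and Sox2, was at 108 and 118 CPM and then at 9.78 and 12.6 CPM (-3.34 ± 0.15, adjusted p = 1.9e-11). The 2 genes that rose were the paralogues Lin28a and Lin28b, which block maturation of let-7 microRNAs. Lin28b was at 35.1 and 36.5 CPM and then at 67.7 and 69.7 CPM (0.94 ± 0.10, adjusted p = 8.8e-08). Lin28a, named after its values were seen, was at 152 and 149 CPM and then at 274 and 275 CPM (0.87 ± 0.09, adjusted p = 2.7e-08). Both pairs of libraries were apart for each of these genes.

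The genes of the formative and primed epiblast had the lowest median of all 43 lists. Of 17 genes, 14 fell, 13 of them at least 2-fold, and 2 rose, with a median log2 fold change of -1.65. Otx2, a homeobox factor of the epiblast and forebrain, was at 9.49 and 9.18 CPM on day 2 and at 0.875 and 1.4 CPM on day 4 (-3.02 ± 0.19, adjusted p = 4.0e-10). Sox3, which also marks neural progenitors, was among the 2 that rose, at 13 and 17 CPM and then at 22.1 and 23.8 CPM (0.61 ± 0.15, adjusted p = 0.0026), but it did not pass without the first day 2 library (0.43, adjusted p = 0.061). Of 15 tested genes of the primitive streak and nascent mesoderm, 4 fell and 3 rose. Brachyury, T, was at 4.24 and 4.21 CPM and then at 0.337 and 0.323 CPM (-3.67 ± 0.34, adjusted p = 5.4e-08). Eomes was at 53.4 and 51.4 CPM and then at 15.6 and 15.9 CPM (-1.73 ± 0.10, adjusted p = 5.8e-12). Tbx6, the factor of paraxial mesoderm, did not pass at 0.903 and 1.62 CPM against 0.606 and 0.893 CPM, although it passed without the first day 2 library (-1.11, adjusted p = 0.016).

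**Figure D2:**
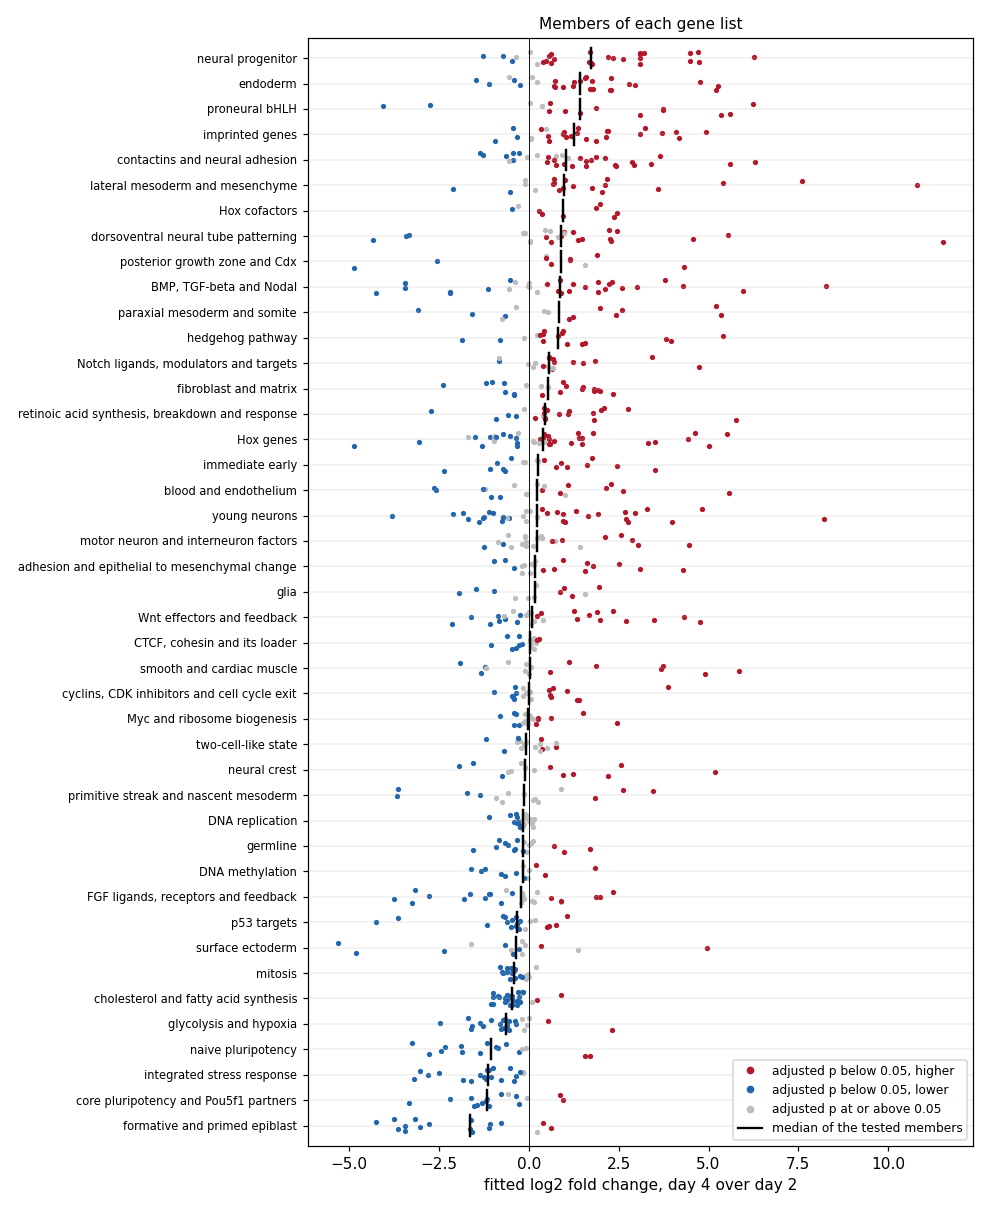
Each point is a tested member of 1 of 43 gene lists (rows, ordered by median), with its fitted log2 fold change, day 4 over day 2, on the x axis; colours give direction where the adjusted p was below 0.05 and black bars give the median. Neural progenitor genes had the highest median, 1.73, and formative and primed epiblast genes the lowest, -1.65.

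Nodal and its antagonists fell, while the Id targets of BMP signalling and several BMP ligands rose. Among 31 genes of the BMP, TGF-beta and Nodal pathways, 18 rose and 7 fell, with a median of 0.87. Nodal (chr10:61417972-61425338), the ligand that patterns the epiblast, was at 79.8 and 76.9 CPM on day 2 and at 4.44 and 3.83 CPM on day 4 (-4.24 ± 0.12, adjusted p = 2.7e-15). Lefty1, a secreted antagonist that Nodal itself induces, was at 143 and 141 CPM and then at 12.9 and 13.1 CPM (-3.45 ± 0.10, adjusted p = 1.3e-13). Lefty2 was at 21.3 and 23.4 CPM and then at 1.95 and 2.14 CPM (-3.45 ± 0.15, adjusted p = 5.8e-13). The Nodal-related ligand Gdf3 fell by 2.20 on the log2 scale. The BMP ligands did not all move one way. Bmp5 had no count on day 2 and 0.707 and 0.585 CPM on day 4, at least 27.1-fold higher than 3 counts over the day 2 group, a bound with the same limit as that of Dbx1. Bmp2 and Bmp7, named after their values were seen, were 2.11 ± 0.12 and 1.93 ± 0.11 higher on the log2 scale. Bmp4, in contrast, was at 3.78 and 3.56 CPM and then at 2.57 and 2.59 CPM (-0.51 ± 0.16, adjusted p = 0.0059).

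All 4 Id genes, which encode inhibitors of bHLH factors and are classical targets of BMP signalling, rose. Id3 (chr4:136143497-136145755) was at 2.52 and 2.44 CPM on day 2 and at 159 and 152 CPM on day 4, 62.6-fold higher (5.97 ± 0.13, adjusted p = 1.6e-15). Id2 was at 6.22 and 6.37 CPM and then at 125 and 123 CPM (4.30 ± 0.10, adjusted p = 2.1e-15). Id1 was at 4.46 and 4.81 CPM and then at 64.9 and 64.3 CPM (3.80 ± 0.11, adjusted p = 4.4e-14). Id4, named after its values were seen, was at 0.886 and 0.982 CPM and then at 4.9 and 4.5 CPM (2.32 ± 0.20, adjusted p = 3.7e-10). In the ES libraries without auxin, which were not part of this test and differed more from each other, Id1 was at 59.3 and 40.8 CPM, above both day 2 values.

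FGF signalling genes fell more often than they rose, at 11 of 25 against 5. The 11 were the ligands Fgf4 and Fgf5, 3 Etv transcription factors that ERK signalling induces, and 6 feedback inhibitors of the Spry, Spred and Dusp families. Spry4, a feedback inhibitor of receptor tyrosine kinases, was at 28.2 and 30.3 CPM on day 2 and at 2.09 and 2.28 CPM on day 4 (-3.74 ± 0.18, adjusted p = 2.0e-11). Etv4 was at 40.6 and 40.4 CPM and then at 3.9 and 5.04 CPM (-3.18 ± 0.12, adjusted p = 2.8e-13). Etv5 was at 187 and 179 CPM and then at 27 and 26.5 CPM (-2.77 ± 0.09, adjusted p = 6.5e-14). Receptors divided: Fgfr3 was at 6.86 and 7.26 CPM and then at 35 and 36 CPM (2.33 ± 0.11, adjusted p = 2.4e-13), and Fgfr2 rose by 0.90 ± 0.09. Fgfr1 did not pass, at 160.0 and 162 CPM against 139 and 149 CPM (adjusted p = 0.063), although it did under DESeq2 (adjusted p = 0.02).

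Genes of retinoic acid metabolism and response rose in 15 of 21 cases and fell in 4, with a median of 0.45. Cyp26b1, which breaks down retinoic acid, was at 115 and 118 CPM on day 2 and at 779 and 799 CPM on day 4 (2.76 ± 0.09, adjusted p = 8.6e-15). Its paralogue Cyp26a1 was at 478 and 481 CPM and then at 666 and 648 CPM, a smaller rise of 0.45 ± 0.09 (adjusted p = 0.00015). Rarb, the retinoic acid receptor whose promoter also holds a DR5 element, was at 55.3 and 54.7 CPM and then at 194 and 189.8 CPM (1.80 ± 0.09, adjusted p = 1.2e-13). Its paralogue Rarg went the other way, at 100.2 and 102 CPM and then at 15.1 and 15.2 CPM (-2.73 ± 0.10, adjusted p = 7.1e-14). Stra8, a retinoid-induced gene of germ cells, was at 779 and 727 CPM and then at 402 and 401 CPM (-0.91 ± 0.09, adjusted p = 8.2e-08). Enzymes that make retinoic acid or its precursor also rose. Aldh1a1 was at 0.545 and 0.476 CPM and then at 28.1 and 27.6 CPM (5.77 ± 0.21, adjusted p = 2.2e-15), and Rdh10, a retinol dehydrogenase, was 2.10 ± 0.10 higher on the log2 scale.

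The 39 Hox genes did not move as a block: 20 rose, 11 fell and 8 did not pass, with a median of 0.39. The pattern differed by cluster. In the HoxC cluster on chromosome 15, 7 of 9 genes rose and none fell, although Hoxc11 did so from 0 to 8 counts in all. Without the first day 4 library neither Hoxc11 (adjusted p = 0.13) nor Hoxc10 (adjusted p = 0.5) passed, and both also missed the threshold without either day 2 library. Hoxc8 was at 1.11 and 0.61 CPM on day 2 and at 38.4 and 39.5 CPM on day 4, 45.9-fold higher (5.52 ± 0.18, adjusted p = 2.2e-14). Hoxc9 was at 0.749 and 0.789 CPM and then at 14.7 and 18.6 CPM (4.43 ± 0.20, adjusted p = 2.1e-12), and Hoxc6 rose by 3.31 ± 0.19. Hoxd4 was at 0.17 and 0.104 CPM and then at 3.69 and 3.02 CPM (4.61 ± 0.54, adjusted p = 1.1e-07). The 21 HoxA and HoxB genes had log2 fold changes between -3.06 and 1.37. Hoxb1 was at 87 and 87.6 CPM and then at 37.1 and 34.2 CPM (-1.29 ± 0.10, adjusted p = 1.2e-08). Hoxa11, of the distal end of its cluster, was at 8.31 and 7.81 CPM and then at 0.808 and 1.11 CPM (-3.06 ± 0.21, adjusted p = 1.0e-09). Hoxc9, Hoxc6, Hoxb1 and Hoxa11 were named after their values were seen. The annotated spans of Hoxd3 and Hoxd4 overlap, that of Hoxc5 overlaps Hoxc6, Hoxc8, Hoxc9 and Hoxc10, and that of Hoxa3 overlaps Hoxa4 to Hoxa6, so the values of these genes are uncertain where reads were shared.

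**Figure D3:**
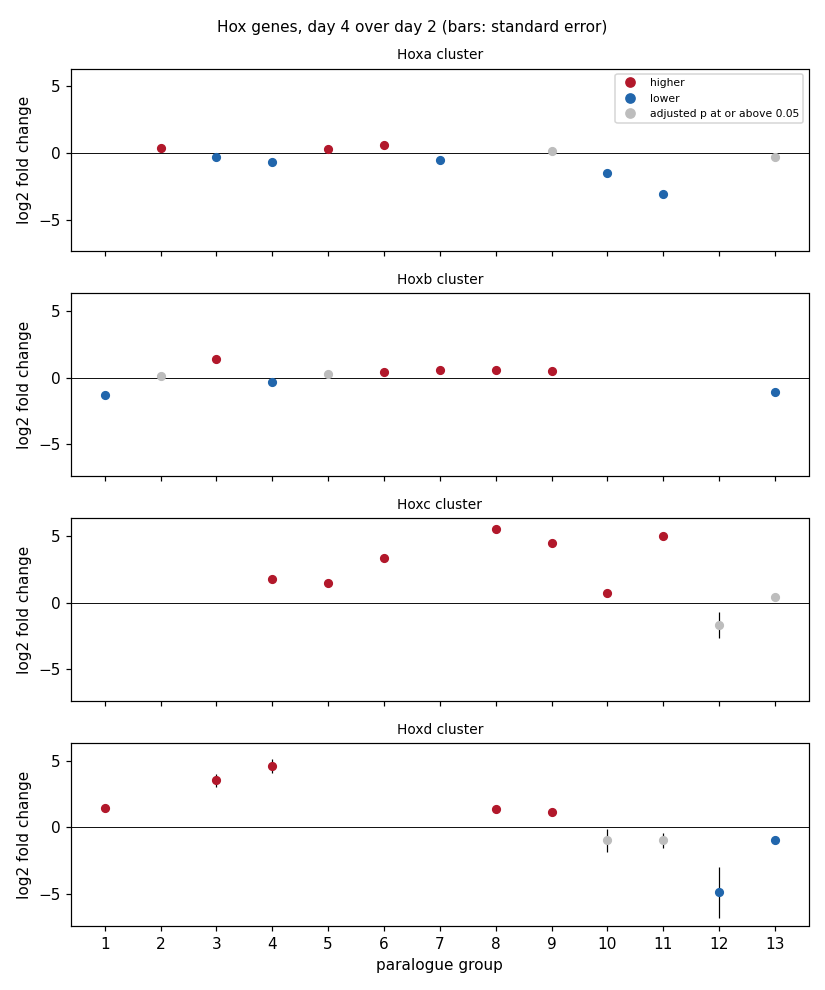
Fitted log2 fold change (y axis, day 4 over day 2) of 38 Hox genes by paralogue group (x axis), with 1 panel per cluster and bars for the standard error; bars shorter than the points are hidden, and Hoxc11, with no count on day 2, has none. HoxC genes 4 to 10 lie above 0, with Hoxc8 at 5.52, while Hoxa10, Hoxa11, Hoxb1 and Hoxb13 lie below it.

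The cofactors that help Hox proteins bind DNA rose with few exceptions, in 7 of 9 cases with 1 that fell. Meis1 was at 25.4 and 25 CPM on day 2 and at 131 and 129.6 CPM on day 4 (2.37 ± 0.09, adjusted p = 5.7e-14). Pbx2 was the one that fell, at 256 and 249 CPM and then at 182 and 184 CPM (-0.47 ± 0.09, adjusted p = 5.6e-06). Of 10 tested genes of the posterior growth zone, 6 rose and 2 fell. Cdx2 was at 0.851 and 0.982 CPM and then at 2.22 and 1.88 CPM (1.15 ± 0.24, adjusted p = 4.2e-05), opposite to Cdx1.

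Neural progenitor genes had the highest median of the 43 lists, 1.73. Of 29, 23 rose, 17 of them at least 2-fold, and 3 fell. Those 3 were En1 and En2, given below, and 1 gene not described singly here, the only 1 to fall at least 2-fold. Pax6, a homeobox factor of neural progenitors, was at 19.9 and 21.8 CPM on day 2 and at 65.1 and 67.2 CPM on day 4 (1.67 ± 0.10, adjusted p = 2.7e-11). Nes, the intermediate filament of neural stem cells, was at 16.9 and 18.3 CPM and then at 58 and 61.5 CPM (1.76 ± 0.10, adjusted p = 6.6e-12). Nr2f2, an orphan nuclear receptor induced by retinoic acid, was at 3.9 and 3.94 CPM and then at 104 and 103 CPM (4.72 ± 0.11, adjusted p = 5.2e-16). Its paralogue Nr2f1 was at 2.98 and 2.48 CPM and then at 59.6 and 62.2 CPM (4.48 ± 0.12, adjusted p = 3.0e-15). The POU factor Pou3f2 was at 0.375 and 0.417 CPM and then at 8.75 and 9.15 CPM (4.49 ± 0.25, adjusted p = 2.2e-13). Cdh2, N-cadherin, was at 9.67 and 10.4 CPM and then at 83.8 and 85.9 CPM (3.08 ± 0.10, adjusted p = 1.8e-13), while Cdh1, E-cadherin, was at 302 and 292 CPM and then at 302 and 305 CPM. Sox1 rose by 0.48 ± 0.13. The next 3 genes were named after their values were seen. The forebrain factor Six3 did not pass, at 0.187 and 0.298 CPM against 0.236 and 0.339 CPM. En1 and En2, of the midbrain and hindbrain boundary, fell by 0.73 and by 0.48 on the log2 scale, but neither passed without the second day 2 library (adjusted p = 0.16 and 0.26) or the first day 4 library (0.15 and 0.06).

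Of 25 genes that pattern the neural tube from dorsal to ventral, 14 rose and 3 fell, with a median of 0.89. Dbx1, described above, belongs to them. Olig2, which was listed with the neural progenitor genes and specifies motor neuron progenitors, was at 0.102 and 0.0744 CPM on day 2 and at 6.5 and 7.33 CPM on day 4 (6.27 ± 0.47, adjusted p = 4.5e-12). Nkx6-1, a ventral homeobox factor, was at 0.307 and 0.298 CPM and then at 13.8 and 14.2 CPM (5.53 ± 0.27, adjusted p = 3.1e-13). Nkx2-2, of ventral progenitors, was at 0.0511 and 0.149 CPM and then at 0.303 and 0.277 CPM (1.49 ± 0.61, adjusted p = 0.039), from totals of 13 and 36 counts. It did not pass without the first day 2 library (adjusted p = 0.26) or without either day 4 library (0.12 and 0.089). The 3 that fell were Gsx1, Gsx2 and Olig3, all known from dorsal progenitors. Gsx2 was at 2.23 and 2.35 CPM and then at 0.0673 and 0.154 CPM (-4.33 ± 0.54, adjusted p = 5.2e-07), and Olig3 was at 2.35 and 1.83 CPM and then at 0.202 and 0.185 CPM (-3.42 ± 0.45, adjusted p = 2.6e-06). Of 17 hedgehog pathway genes, 13 rose and 2 fell. Shh was at 2.13 and 2.14 CPM and then at 3.62 and 4.6 CPM (0.95 ± 0.18, adjusted p = 0.00024), and its transcriptional target Gli1 rose by 0.92 ± 0.11. Ihh, the paralogue known from endoderm and bone, was at 3.49 and 3.53 CPM and then at 48.5 and 49.9 CPM (3.81 ± 0.12, adjusted p = 2.0e-14). The co-receptor Gas1 was at 11.9 and 12.3 CPM and then at 177 and 201 CPM (3.96 ± 0.10, adjusted p = 4.4e-15).

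Proneural bHLH genes, which commit progenitors to become neurons, rose in 11 of 15 tested cases and fell in 2. Neurog2 was at 0.102 and 0.179 CPM on day 2 and at 7.02 and 7.08 CPM on day 4 (5.61 ± 0.52, adjusted p = 3.4e-09). Neurod4, which acts after it, was at 0.0341 and 0.0595 CPM and then at 3.79 and 3.68 CPM (6.23 ± 0.82, adjusted p = 2.2e-08). Neurod2 and Neurod6, of later cortical neurons, had no count in the 4 libraries. Of 19 Notch pathway genes, 11 rose and 1 fell. Dll1, the ligand on nascent neurons, was at 5.96 and 6.12 CPM and then at 9.84 and 9.01 CPM (0.64 ± 0.15, adjusted p = 5e-04). The Notch target Hes5 was at 0.0341 and 0.0744 CPM and then at 1.8 and 1.26 CPM (4.74 ± 0.89, adjusted p = 2.9e-05).

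Genes of young neurons were split. Of 35, 17 rose and 12 fell, with a median of 0.24. Those that fell included genes of the neuronal cytoskeleton. Tubb3, neuronal beta-tubulin, was at 40.3 and 41.3 CPM on day 2 and at 11.6 and 11.1 CPM on day 4 (-1.84 ± 0.11, adjusted p = 3.3e-11). Stmn2, a microtubule regulator of growing axons, was at 90.8 and 87.1 CPM and then at 6.06 and 6.5 CPM, 14.2-fold lower (-3.82 ± 0.11, adjusted p = 2.3e-14). Mapt, which encodes tau and was named after its values were seen, was at 38.5 and 41 CPM and then at 8.83 and 9.55 CPM (-2.11 ± 0.11, adjusted p = 1.1e-11). In the same libraries Dcx, the microtubule protein of migrating neurons, was at 0.136 and 0.0744 CPM and then at 3 and 2.99 CPM (4.83 ± 0.42, adjusted p = 4.2e-11). Onecut2, a transcription factor of new neurons, was at 1.26 and 1.74 CPM and then at 10.6 and 12.8 CPM (2.95 ± 0.22, adjusted p = 2.8e-09). On day 6, in a comparison that shares the day 4 libraries, 32 of the 35 rose and none fell, where 13.8% of all genes rose. Tubb3 reached 71.9 and 80.8 CPM on day 6, Stmn2 31.9 and 35.1 CPM and Dcx 52.7 and 53.5 CPM. Stmn2 was below its day 2 level on both later days, and was at 163 and 207 CPM in the untreated ES libraries.

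**Figure D4:**
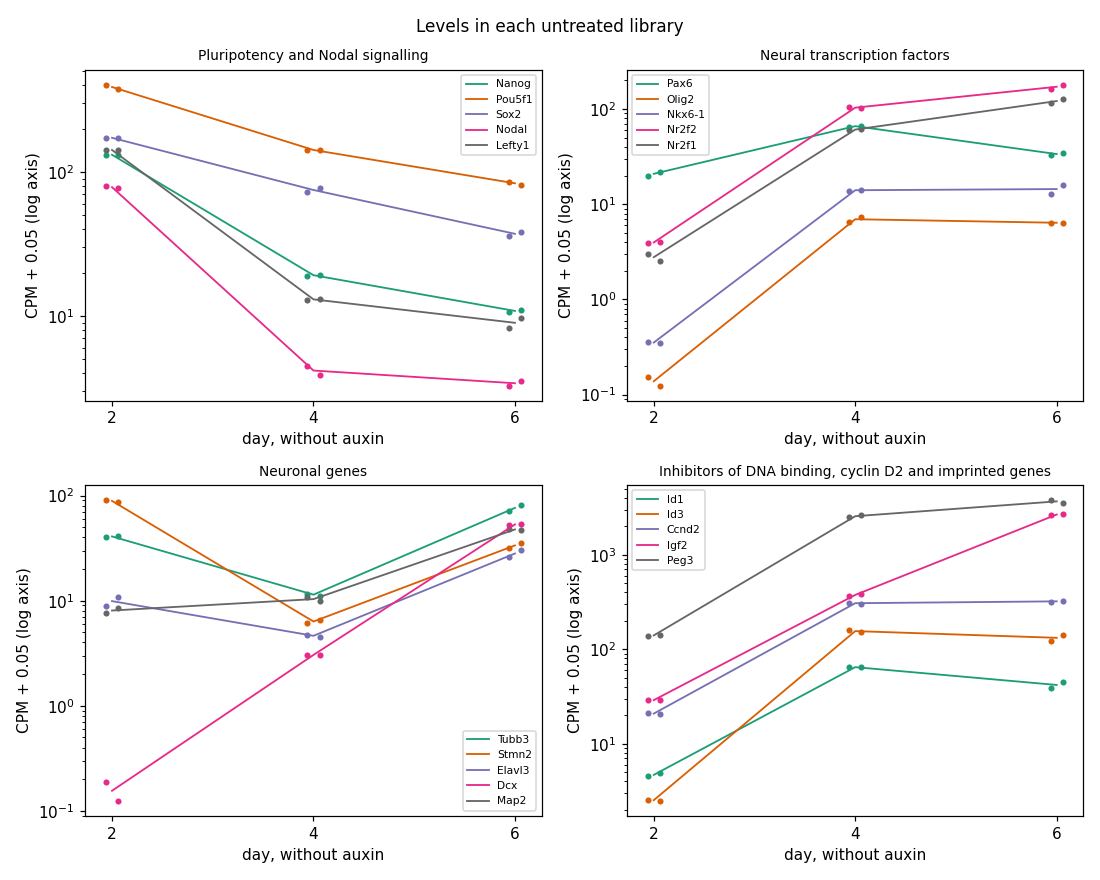
Level of 5 genes per panel in each untreated library (points, CPM plus 0.05 on a log axis) on days 2, 4 and 6 (x axis), with lines through the group means. Between day 2 and day 4 the pluripotency and Nodal genes fell, the 5 neural factors rose, Tubb3, Stmn2 and Elavl3 fell, and Id1, Id3, Ccnd2, Igf2 and Peg3 rose.

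Of 23 tested factors of motor neurons and interneurons, 7 rose, 2 fell and 14 did not pass. Isl1, of postmitotic motor neurons, was at 2.04 and 2.01 CPM on day 2 and at 2.02 and 1.77 CPM on day 4 (adjusted p = 0.6). Mnx1 was at 4.14 and 5.34 CPM and then at 5.32 and 5.73 CPM (adjusted p = 0.3). Gata3, found in V2b interneurons and also in other lineages, had the largest rise of the list, from 1.33 and 1.22 CPM to 28 and 28.5 CPM (4.47 ± 0.15, adjusted p = 4.1e-15). Genes of neuronal adhesion and guidance rose in 20 of 32 cases and fell in 6. Slit3 was at 4.77 and 4.91 CPM and then at 37.4 and 35.9 CPM (2.92 ± 0.11, adjusted p = 3.5e-14), beside its receptor gene Robo2. Among 12 tested genes of glia, 4 rose and 3 fell. Gfap was at 1.21 and 1.56 CPM and then at 0.757 and 0.647 CPM, a fall that was at the threshold without the second day 2 library (adjusted p = 0.05), and Aqp4, of mature astrocytes, had 6 counts on day 2 and 18 on day 4 and did not pass.

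Most endoderm markers rose in the same libraries as the neural genes. Of 27 endoderm genes, 20 rose, 16 of them at least 2-fold, and 4 fell, with a median of 1.42. Their summed level was 1255 and 1242 CPM on day 2 and 2873 and 2849 CPM on day 4. The rising genes described next made up only a small part of that rise, and most of it came from members not described in this paragraph. Afp, the fetal serum protein of yolk sac and liver, was at 0.545 and 0.67 CPM and then at 24.3 and 21.3 CPM (5.22 ± 0.20, adjusted p = 7.3e-14). Apoa1, an apolipoprotein of the same tissues, was at 0.272 and 0.417 CPM and then at 15.2 and 12 CPM (5.27 ± 0.24, adjusted p = 1.8e-13). Ttr, a carrier of thyroxine and retinol-binding protein, was at 1.09 and 0.774 CPM and then at 25.7 and 24 CPM. The endoderm factors Foxa2, at 11.6 and 11.1 CPM and then at 53.3 and 55.5 CPM, and Sox17, at 11.3 and 12.9 CPM and then at 58.5 and 58.8 CPM, rose as well. Foxa2 is also a gene of the floor plate of the neural tube. Foxa1 fell slightly, by 0.25 on the log2 scale. Whether neural, endoderm and mesoderm genes were expressed in the same or in separate cells was not tested.

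Of 20 genes of lateral mesoderm and mesenchyme, 15 rose and 2 fell, with a median of 0.98. Their summed level was 282 and 283 CPM on day 2 and 666 and 680.3 CPM on day 4. Nepn, described above, and Gata4 made up a large part of that rise. Gata4 and Gata6 are also counted in the endoderm list, so the 2 lists are not independent. Foxf1, a hedgehog-responsive factor of splanchnic mesoderm, was at 0.494 and 0.595 CPM and then at 23 and 23.7 CPM (5.41 ± 0.21, adjusted p = 7.6e-14). Gata4 was at 48.4 and 45.7 CPM and then at 159.6 and 159 CPM (1.76 ± 0.09, adjusted p = 1.5e-13). Hand1 did not pass, and Tbx5, of the heart and forelimb, fell by 2.10 on the log2 scale. Among 14 tested genes of paraxial mesoderm, 7 rose and 3 fell. Meox1 was at 1.77 and 2.35 CPM and then at 75.5 and 78.5 CPM (5.21 ± 0.13, adjusted p = 2.1e-15), and Foxc2 was at 0.409 and 0.417 CPM and then at 17.2 and 16.8 CPM (5.36 ± 0.23, adjusted p = 1.3e-13). Tcf15 went the other way, at 25.3 and 26 CPM and then at 2.69 and 3.3 CPM (-3.09 ± 0.18, adjusted p = 1.9e-10). Contractile genes included Acta2, smooth muscle actin, at 4.39 and 4.98 CPM and then at 59.8 and 64.9 CPM. Of 16 genes of smooth and cardiac muscle, 7 rose and 3 fell, and the cardiac gene Myl7 did not pass. Of 21 genes of fibroblasts and matrix, 11 rose and 7 fell. Sparc, a secreted matrix protein, was at 403 and 377 CPM and then at 1995 and 1956 CPM (2.34 ± 0.09, adjusted p = 3.4e-14), whereas Lum, of mature fibroblasts, had 24 counts on day 4 and did not pass without the first day 2 library (adjusted p = 0.073).

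Of 19 tested genes of blood and endothelium, 7 rose and 5 fell. Pecam1, an adhesion molecule of endothelium that ES cells also express, was at 289 and 273 CPM on day 2 and at 44.1 and 45.8 CPM on day 4 (-2.64 ± 0.09, adjusted p = 3.2e-14). Kdr, the receptor of vascular progenitors, was at 1.16 and 1.01 CPM and then at 6.26 and 6.91 CPM (2.61 ± 0.19, adjusted p = 3.0e-09), and Tal1, the blood factor, did not pass. Among 15 neural crest genes, 6 rose and 3 fell. Sox10 was at 0.954 and 0.923 CPM and then at 0.303 and 0.185 CPM (-1.94 ± 0.45, adjusted p = 0.0014). Among 14 genes of surface ectoderm, 2 rose and 6 fell. The epidermal markers Krt5, with 25 counts on day 2 and 8 on day 4, and Trp63, with 6 and 16 counts, did not pass. Krt5 passed as a fall when only the 4 libraries were fitted (-1.60, adjusted p = 0.038) and with a replicate block in them (-1.64, adjusted p = 0.045). Trp63 had its only day 2 counts in the first day 2 library. Without that library its log2 fold change was 5.99, a value that depends on the prior count.

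Imprinted genes, which are expressed from 1 parental copy and include many regulators of fetal growth, rose in 20 of 26 cases and fell in 3, with a median of 1.25. Their summed level was 2650.3 and 2647 CPM on day 2 and 8983 and 9390.4 CPM on day 4. Peg3 (chr7:6703892-6730431), a zinc-finger gene expressed from the paternal copy, was at 138 and 142 CPM and then at 2478 and 2630.3 CPM, 18.3-fold higher (4.19 ± 0.13, adjusted p = 3.6e-13). Its neighbour Usp29 on the opposite strand (chr7:6730578-6967219) was at 1.6 and 2.66 CPM and then at 36.3 and 37.6 CPM (4.10 ± 0.14, adjusted p = 1.9e-13). Igf2, the fetal growth factor (chr7:142650766-142666816), was at 28.9 and 28.9 CPM and then at 368 and 383 CPM (3.70 ± 0.09, adjusted p = 4.9e-16). The non-coding RNA H19, its maternally expressed neighbour (chr7:142575529-142578143), was at 16 and 15.1 CPM and then at 144 and 150.5 CPM (3.24 ± 0.10, adjusted p = 2.5e-15). Dlk1, a Notch-like ligand, was at 13.1 and 13.7 CPM and then at 414 and 409 CPM (4.94 ± 0.10, adjusted p = 5.8e-16), and Meg3 of the same domain rose by 2.17 ± 0.10. Plagl1, a zinc-finger factor linked to this set of genes, was at 43.8 and 44 CPM and then at 350.5 and 392 CPM (3.08 ± 0.12, adjusted p = 1.9e-12). The 3 that fell, Grb10, Snrpn and Zrsr1, named after their values were seen, had log2 fold changes of -0.33, -0.95 and -0.43. The counts do not tell the parental copies apart.

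Genes of DNA replication and mitosis fell or did not pass, while cyclin D2 rose. Of 25 DNA replication genes, 10 fell and none rose, with a median of -0.15. Of 20 mitosis genes, 14 fell and none rose, with a median of -0.40. Mcm2, a subunit of the replicative helicase, was at 541 and 524 CPM on day 2 and at 406 and 402 CPM on day 4 (-0.40 ± 0.09, adjusted p = 8.2e-06). Mki67 did not pass, at 428 and 455 CPM against 479 and 537 CPM (adjusted p = 0.21), although it passed when only the 4 libraries were fitted (adjusted p = 0.00025). Ccnd2 (chr6:127125162-127152193) was at 20.9 and 20.7 CPM and then at 309.7 and 304 CPM, 14.8-fold higher (3.88 ± 0.10, adjusted p = 2.2e-14). The other two D cyclins fell: Ccnd1 was at 28.9 and 29.5 CPM and then at 20.6 and 21.7 CPM (-0.46 ± 0.11, adjusted p = 0.00031), and Ccnd3 was at 162 and 158 CPM and then at 81.5 and 81.7 CPM (-0.97 ± 0.09, adjusted p = 1.8e-09). Mycn was at 22.5 and 26.5 CPM and then at 133 and 133 CPM (2.44 ± 0.09, adjusted p = 3.0e-13), and Myc rose by 1.52 ± 0.11. Of 20 genes of Myc and ribosome biogenesis, 6 rose and 5 fell, and Ncl, the nucleolar protein nucleolin, did not pass.

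Most genes of the integrated stress response, glycolysis and cholesterol synthesis fell. Of 20 genes of the integrated stress response, in which ATF4 induces amino acid synthesis and transport when translation is slowed, 18 fell, 13 of them at least 2-fold, and none rose, with a median of -1.13. Chac1, which degrades glutathione, was at 85.5 and 79.3 CPM on day 2 and at 8.58 and 9.32 CPM on day 4 (-3.20 ± 0.13, adjusted p = 4.7e-12). Trib3, a pseudokinase induced by ATF4, was at 114 and 109 CPM and then at 16.4 and 15.6 CPM (-2.81 ± 0.10, adjusted p = 9.5e-14). Nupr1 was at 16.5 and 14.5 CPM and then at 1.94 and 1.82 CPM (-3.04 ± 0.17, adjusted p = 1.0e-10). Asns, asparagine synthetase, was at 339 and 331 CPM and then at 112 and 108 CPM (-1.61 ± 0.09, adjusted p = 1.1e-12), and Atf4 itself fell by 1.06 on the log2 scale. Atf3, whose promoter also holds the ATF4 motif, did not pass, at 10.2 and 9.11 CPM against 8.78 and 8.32 CPM (adjusted p = 0.25). The untreated ES libraries had Chac1 at 4.3 and 10.4 CPM and Trib3 at 21.1 and 32.4 CPM, below the day 2 values of both.

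Of 24 genes of glycolysis and the hypoxia response, 18 fell and 2 rose, with a median of -0.64. Pfkp, a phosphofructokinase, was at 129 and 134 CPM on day 2 and at 24.5 and 23.6 CPM on day 4 (-2.46 ± 0.10, adjusted p = 1.9e-12). Bnip3, a mitochondrial target of hypoxia-inducible factors, was at 50.1 and 51.6 CPM and then at 15.7 and 16 CPM (-1.68 ± 0.10, adjusted p = 2.4e-10). It did not pass with all 24 libraries in the fit (adjusted p = 0.19). Ndrg1, another gene of this response, rose from 12.6 and 13.2 CPM to 61.8 and 65.6 CPM (2.31 ± 0.10, adjusted p = 7.0e-14). Of 28 genes of cholesterol and fatty acid synthesis, 24 fell and 2 rose, only 2 of the falls reaching 2-fold, with a median of -0.47. Dhcr7, which completes cholesterol synthesis, was at 134 and 132 CPM and then at 67.1 and 65.4 CPM (-1.01 ± 0.09, adjusted p = 8.0e-10). Of 20 p53 targets, 13 fell and 4 rose, with a median of -0.33. The growth-differentiation factor Gdf15 was at 10.3 and 11.8 CPM and then at 0.926 and 0.832 CPM (-3.65 ± 0.27, adjusted p = 2.9e-09), while Cdkn1a, the main p53-induced cell cycle inhibitor, fell by only 0.35 on the log2 scale.

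Enzymes that write and remove DNA methylation changed in both directions. Dnmt3a, a de novo methyltransferase, was at 1027 and 976 CPM on day 2 and at 328 and 334 CPM on day 4 (-1.60 ± 0.09, adjusted p = 9.5e-13). Tet1, which oxidises methylcytosine, was at 185 and 199 CPM and then at 73 and 80.3 CPM (-1.33 ± 0.22, adjusted p = 9.3e-05), while Tet3 was at 39.5 and 40.5 CPM and then at 139 and 149 CPM (1.85 ± 0.16, adjusted p = 6.9e-08). Of 13 genes in this list, 7 fell and 3 rose. Of 15 genes of CTCF and cohesin, 7 fell and 2 rose, with a median of 0.04 and no member other than Ctcfl changing 2-fold. Ctcfl, the germline paralogue of CTCF, was at 6.49 and 7.92 CPM and then at 3.35 and 3.68 CPM (-1.04 ± 0.17, adjusted p = 7.8e-05).

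The same step was also measured in cells given auxin, which removes the degron-tagged CTCF protein. The difference between the 2 steps was tested directly. That difference shares the untreated libraries that picked the largest changes above, Osr1 and Olig2 among them. It passed for 2227 genes (9.85% of those tested), with a higher step under auxin for 1067 (4.72%) and a lower one for 1160 (5.13%). Among the 29 neural progenitor genes, 19 had a lower step under auxin and none a higher one. Among the 16 naive pluripotency genes, 11 had a higher step and 2 a lower one. In the untreated step, which this difference subtracts, 23 of those 29 genes had risen and 12 of those 16 had fallen. The lists were chosen with earlier results of these data known, and list counts of the difference were made in the main fit only. Olig2 was at 0.0375 and 0.0937 CPM on day 2 and at 0.147 and 0.243 CPM on day 4 with auxin, against 6.5 and 7.33 CPM on day 4 without it (difference of steps -4.76 ± 0.78, adjusted p = 0.00048). Nkx6-1 was at 1.52 and 1.5 CPM and then at 1.5 and 1.06 CPM with auxin (-5.77 ± 0.34, adjusted p = 8.7e-09), so its day 2 values were above those without auxin and its day 4 values did not exceed them. Osr1 was at 0.337 and 0.562 CPM and then at 1.63 and 1.7 CPM (-5.74 ± 0.45, adjusted p = 9.1e-08). Nanog was at 81.4 and 82.6 CPM and then at 31.6 and 30 CPM (1.37 ± 0.14, adjusted p = 6.9e-08). Among 21 retinoic acid genes, 3 had a higher step under auxin and 8 a lower one, and among 26 imprinted genes 1 had a higher step and 7 a lower one. For a member of each of these lists the test did not separate the steps. Dlk1 was at 13.9 and 11.8 CPM and then at 405 and 428 CPM with auxin (0.08 ± 0.14, adjusted p = 0.77), and Cyp26a1 did not pass either (-0.21 ± 0.13, adjusted p = 0.29). The 2 auxin libraries of day 2 differed from each other by a standard deviation of log2 ratios of 0.305, against 0.169 to 0.195 in the other differentiation groups. The count of 2227 was 3684 without the first of these libraries, 6273 without the second, 1278 without the first day 4 auxin library, between 1215 and 1412 without 1 of the 4 untreated libraries, and 77 when the ES libraries were added to the fit.

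**Figure D5:**
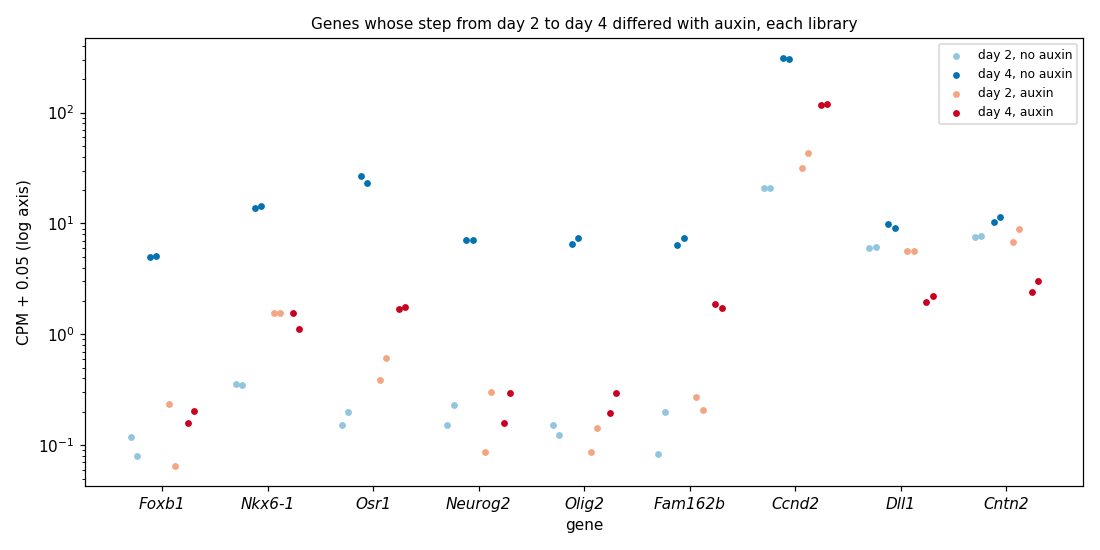
Level of 9 genes (x axis) in each library of days 2 and 4 without auxin (blue) and with auxin (red), as CPM plus 0.05 on a log axis. Without auxin every gene was higher on day 4 than on day 2; with auxin Foxb1, Nkx6-1, Osr1, Neurog2, Olig2 and Fam162b were below 2 CPM on day 4 and Dll1 and Cntn2 were lower than on day 2.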

How the data were processed

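RNA sequencing was done on total RNA from 24 libraries in 12 groups of 2. The authors deposited whole-number read counts per gene, and per the submitters' processing notes STAR, HTSeq, edgeR and mm10 were used. Their versions, the gene annotation and the strand setting were not stated in those notes or the labels. Among counts from 1 to 20, 69.2% to 70.5% were even in the 4 libraries compared, so counts may not be single fragments, and every count was also divided by 2 as an alternative. Of the deposited lines, 1 had no gene name and was left out.

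Counts were fitted with edgeR 4.0.16 (R 4.3.3, limma 3.58.1) by the quasi-likelihood test over the 16 differentiation libraries, with 1 mean per group, TMM scaling over all 24 libraries, and filterByExpr (minimum count 10, total 15). This kept 22598 of 51697 genes. The contrast was untreated day 4 minus untreated day 2, with Benjamini-Hochberg adjustment over all genes tested. The step under auxin was compared by the interaction contrast. CPM use the TMM-scaled library size. A gene with no count in a group was set against a floor of 3 counts over the group. Floors cover counting error only, and take each count as a separate fragment. The standard error of a log2 fold change was computed from the fitted negative binomial variance and quasi-dispersion, taken as at least 1, and is not given where a group has no count. In simulated data for the main contrast, 198 of 200 changed genes were recovered. Those genes were well counted and changed at least 2-fold, and all genes were given the same spread. The simulation therefore does not show how many smaller changes, or changes in genes with few counts, were missed.

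The members and 43 gene lists were chosen with earlier results of these data known. Named genes were Ctcf, the 12 largest changes each way with an average log2 CPM of at least 1, no overlap between the days and a gene name other than a model number, the first 6 members of each list, and up to 4 further called members with the largest changes. Gene spans are from GENCODE on GRCm38 and promoters from RefSeq on GRCm38.p6. Alternatives were other scalings, filters, thresholds and libraries, DESeq2 1.42.0, a replicate block and leaving out each library. Some genes of the lists are counted but not reported singly here.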

Additional observations from a re-analysis of the deposited data

Results flagged for a closer look

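The step from day 2 to day 4 differed between cells with and without auxin for 2227 genes by edgeR's test of the difference itself. Single genes were looked up only among the largest changes and the first 3 members of each list, at an average log2 CPM of at least 1, so other named genes that differed, such as Pou3f2 and Plagl1, are not given here. In 9 of those given here the difference passed and was at least 2 in size on the log2 scale, and all 9 had risen without auxin. The difference subtracts the untreated step by which the largest changes had been chosen, so a large rise tends to make it negative. The auxin step minus the untreated step was -6.16 for Foxb1, -5.77 for Nkx6-1, -5.74 for Osr1, -5.35 for Neurog2 and -4.76 for Olig2. It was -2.93 for Fam162b, -2.23 for Ccnd2, -2.11 for Dll1 and -2.04 for Cntn2. Foxb1, Neurog2 and Olig2 rest on few counts in the auxin libraries, where their levels were at most 0.25 CPM. Ccnd2 still went from 31.6 and 43.4 CPM to 117 and 119 CPM with auxin. Dll1, at 5.58 and 5.65 CPM and then at 1.91 and 2.15 CPM, and Cntn2, at 6.78 and 8.79 CPM and then at 2.38 and 2.97 CPM, were lower on day 4 than on day 2 with auxin and higher without it.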

How the results depend on the processing

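With all 24 libraries in the fit, 3079 genes were higher and 2486 lower on day 4, and 77 differed in their step under auxin. The ES groups in that fit had replicate spreads of 0.545 to 0.665. Testing against a fold of 2 with glmTreat gave 1617 genes at least 2-fold higher and 1159 lower, and keeping genes with a mean of at least 1 CPM gave 1642 and 1296. At an adjusted p below 0.01, 1049 genes differed under auxin. Leaving out 1 library gave 5197 to 6935 higher genes, 4396 to 6344 lower genes, 2376 to 2689 at least 2-fold higher, 1963 to 2311 at least 2-fold lower, and 1215 to 6273 with a different step. A group left with 1 library is assumed to vary like the others, and leaving out auxin libraries was chosen after seeing the data. DESeq2 gave 5870 higher and 5723 lower genes. The cause of these differences was not tested. Replicate numbers were not taken to pair libraries, since no label says so and the correlation of replicate differences between day 2 and day 4 was 0.03. With a replicate block, 6123 genes were higher and 5471 lower, and 2073 differed under auxin. With the block in the 4 libraries alone, 7066 were higher and 6776 lower. Genes with few counts, such as Nkx2-2 and Aqp4, had standard errors of 0.61 and 1.29, so smaller changes in them were not detectable at this depth. Of 186 named genes, 46 changed side of the threshold or direction under some alternative, 33 of them losing their call with all 24 libraries. Among these 33 were Bnip3 (adjusted p = 0.19 by edgeR), Lin28a (0.14), Shh (0.14), Sox1 (0.46), Dll1 (0.34), Ccnd1 (0.49) and Egr1 (0.4). Direction turned in 5 genes that did not pass. Leaving out 1 library gave log2 fold changes of -0.11 to 0.03 for Dazl, -0.33 to 0.08 for Hand1, -0.20 to 0.07 for Myl7, -0.05 to 0.62 for Six3 and -0.34 to 0.35 for Tal1.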

Other observations

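Of 28 genes of Wnt effectors and feedback, 12 rose and 8 fell, with a median log2 fold change of 0.10. Wnt5a, a ligand known for signalling without beta-catenin, was at 1.98 and 2.31 CPM on day 2 and at 23 and 25.4 CPM on day 4 (3.49 ± 0.13, adjusted p = 1.2e-13 by edgeR). Lgr5, a receptor for R-spondins, was at 0.136 and 0.0595 CPM and then at 2.71 and 2.56 CPM. Axin2, a feedback target of beta-catenin, was at 20.6 and 20.5 CPM and then at 17.5 and 17.2 CPM (-0.25 ± 0.11, adjusted p = 0.049), which did not pass without any 1 of the 4 libraries (adjusted p from 0.13 to 0.17) or with a replicate block over 16 libraries (0.055). Of 18 immediate early genes, which respond quickly to stimuli, 8 rose and 6 fell. Fosb was at 1.81 and 1.46 CPM and then at 13.7 and 23.3 CPM, while Egr1, which ERK signalling induces, was at 76.9 and 72.2 CPM and then at 38.8 and 41.3 CPM. The day 4 replicates of Fosb were further apart than those of Egr1.

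Genes of the state that resembles the embryo's first cleavage stage hardly separated the 2 days. Of 19, 3 rose, 3 fell and 13 did not pass. On day 6, against the same day 4 libraries, 18 fell, where 12.6% of all genes fell, with a median of -3.00. Zscan4c was at 61.3 and 59 CPM on day 2, at 54.7 and 49.3 CPM on day 4 and at 7.29 and 5.59 CPM on day 6. The Zscan4 genes are near-identical copies, so their separate values are uncertain. Of 17 germline genes, 9 fell and 3 rose between day 2 and day 4. Dazl, a germ cell RNA-binding protein, was at 269 and 244 CPM and then at 248 and 250.3 CPM and did not pass.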
